A study of Homo sapiens with 80 samples.

Results

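The retinoic acid genes described here are 10 named genes that take up retinol, make, bind, sense or destroy retinoic acid: STRA6, DHRS3, ALDH1A1, ALDH1A2, ALDH1A3, CRABP1, CRABP2, CYP26A1, CYP26B1 and RARB. They were chosen by name, and all 10 were found among the 43388 genes of both deposited TPM tables and passed the filters on low values of the main fits. TPM is a level corrected for gene length and library size.

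Retinoic acid is a small lipid signal made from vitamin A. Retinol enters cells through STRA6, is oxidised to retinaldehyde, which DHRS3 can reduce back to retinol, and is turned into retinoic acid by the retinaldehyde dehydrogenases of the ALDH1A family. CRABP proteins carry retinoic acid inside the cell, CYP26 enzymes destroy it, and nuclear receptors such as RARB bind it on DNA. In the embryonic heart, retinoic acid helps to set the boundary between the posterior inflow part and the anterior part of the heart field, and ALDH1A2 later marks the epicardium. RARB, CYP26A1 and DHRS3 are textbook genes that retinoic acid itself turns on.

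RNA was sequenced from cultures in which human pluripotent stem cells were turned into cardiomyocytes, in 80 libraries of 2 experiments, from differentiations that were sorted afterwards into high or low purity by flow cytometry for cardiac troponin T. All differentiations received CHIR99021, which activates WNT signalling, on day 0. IWP2, which blocks WNT secretion, followed on day 2 in WTC11 and on day 3 in the other lines. The day 0 wells of WTC11 were taken before CHIR99021. The multi-omic experiment had 56 poly(A) libraries, all of the induced pluripotent line WTC11: 25 from wells of the high purity differentiation at passage 52 and 31 from wells of the low purity differentiation at passage 69. Its wells were sampled on days 0, 2, 4 and 6 (4 high and 4 low purity wells each), day 8 (3 and 4), day 10 (1 and 4), day 13 (2 and 4) and day 16 (3 and 3). The RNA-only experiment had 24 total RNA libraries. In it, H9, an embryonic stem cell line, was at passage 55 (low purity) and 58 (high purity), IMR90-4, another induced line, at passage 75 for low and 55 for high, and WTC11 at passage 69 for low and 81 for high. Each of these 6 differentiations was sampled once at 4 stages: days 0, 2, 4 and 6 in WTC11, and days 0, 3, 5 and 7 in H9 and IMR90-4. The question the design sets is whether the transcripts of a differentiation differ by purity before the outcome is known.

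In the multi-omic experiment each purity class is 1 differentiation at 1 passage, so purity, passage and differentiation cannot be told apart, and p-values measure only the spread between wells. In bulk RNA, fewer cells of a type and less RNA per cell cannot be told apart either. Multi-omic libraries held 6579715 to 18143597 reads and RNA-only libraries 17990882 to 40357968. The high purity wells were the deeper ones on day 2 (9964769 to 14718686 reads, against 6841508 to 7732058 in low purity wells), and also on days 0, 4 and 6. The column names of the multi-omic count table did not match those of the TPM table: 0 of 56 matched their namesake, so the TPM names were used. Summed over 7 cardiomyocyte markers, day 16 wells were at 10610 to 12714 TPM in high purity and 3822 to 5650 TPM in low purity, the order that the labels give.

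A gene was called when its Benjamini-Hochberg adjusted p was under 0.05 over all genes and its log2 fold change was at least 1 in size. On day 0, before CHIR99021, 0 of the 10 genes were called between high and low purity wells by limma, where 1.07% of the 25664 genes tested were called. An unadjusted p under 0.05 by limma was seen for 2 of them and for 6591 of the 25664 genes. EdgeR on recovered reads also called 0 of the 10, with 2 under that p. On day 2, 1 of 10 was called, where 5.32% of all genes were. On day 4 it was 3 of 10 (7.84% of all genes), on day 6 it was 4 of 10 (8.8%) and on day 8 it was 4 of 10 (12.2%). On day 13 it was 3 of 10 (10.8%) and on day 16 it was 3 of 10 (13.4%). The direction turned over the time course: on days 4, 6 and 8 there were 3 genes higher in high purity each day, joined by 1 higher in low purity on day 6 and on day 8, whereas on day 16 all 3 called genes were higher in low purity. The median log2 fold change of the 10 genes was 0.47 on day 4 and -0.79 on day 16, and that of all genes tested was 0.00 on both days. TMM scaling moved log2 high minus low by 0.23 on day 8, 0.19 on day 13 and 0.22 on day 16, and by at most 0.07 in size on the earlier days.

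**Figure D1:**
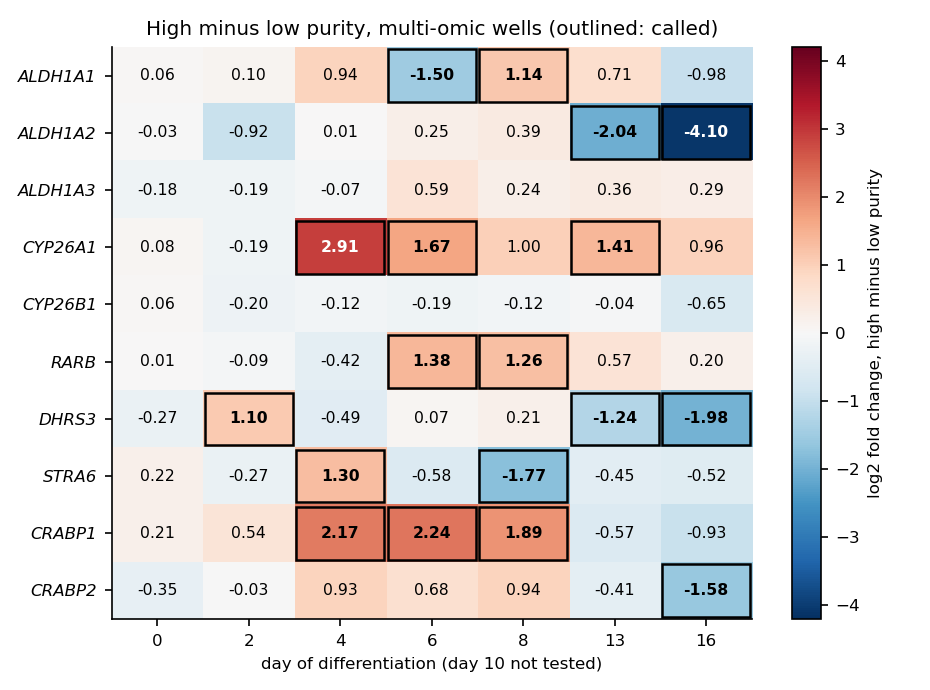
Log2 fold change (high minus low purity, on the log2(TPM + 1) scale) of each gene on each tested day of the multi-omic experiment, with outlined cells for called genes. CYP26A1 on day 4 (2.91) and ALDH1A2 on day 16 (-4.10) are the strongest entries in each direction.

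From day 0 to day 2, 6 of 10 genes were called in high purity wells (16.7% of all genes were) and 6 of 10 in low purity wells (17.9%). In both, STRA6, ALDH1A2, ALDH1A3, CRABP2 and CYP26A1 rose and DHRS3 fell. From day 2 to day 4, 7 of 10 were called in high purity (13.7% of all genes) and 6 of 10 in low purity (16.9%). RARB and DHRS3 rose in both, and STRA6, ALDH1A2, ALDH1A3 and CRABP1 fell in both. CYP26A1 rose at this step in high purity wells, by 2.78 (adjusted p 5.29e-16 by limma), and was not called in low purity wells. From day 4 to day 6, 5 of 10 were called in high purity (7.96% of all genes) and 7 of 10 in low purity (6.61%), and ALDH1A1 rose while CYP26A1 and CRABP1 fell in both. From day 6 to day 8, 2 of 10 were called in high purity (5.58%) and 1 of 10 in low purity (3.31%), with CYP26A1 falling in both. From day 8 to day 16, 6 of 10 were called in each differentiation (11.4% of all genes in high purity and 6.39% in low). In low purity wells all 6 rose, and in high purity wells 3 rose and 3 fell.

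**Figure D2:**
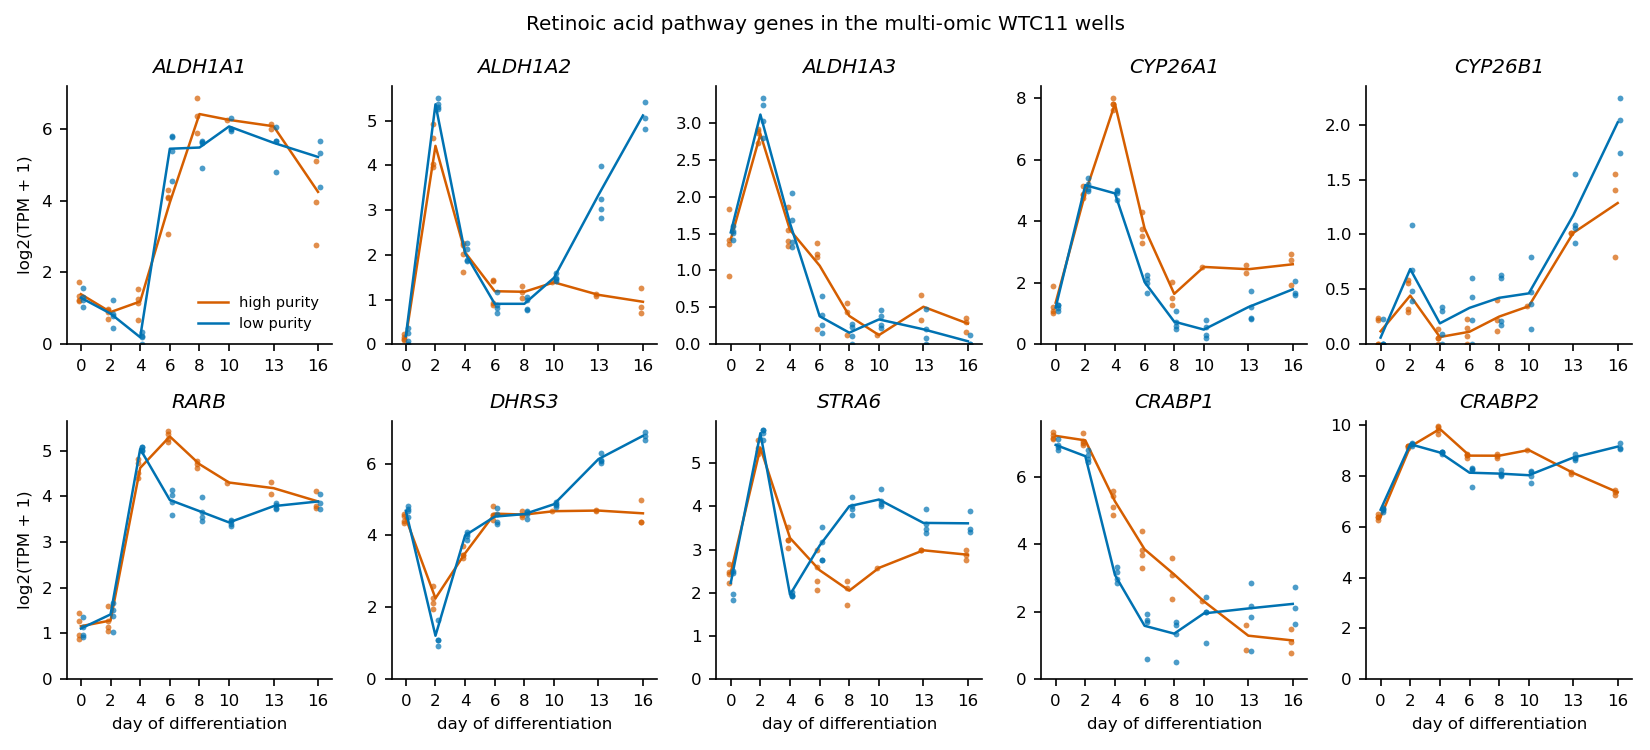
Level of each gene as log2(TPM + 1) by day of differentiation in the multi-omic experiment: points are wells, set slightly apart sideways by class, and lines join the log2 of the class mean. RARB peaks on day 6 in high purity and on day 4 in low purity, and ALDH1A2 and DHRS3 are far apart between the classes on day 16.

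STRA6, the membrane receptor that takes up retinol from its carrier RBP4 (chromosome 15, 74179466 to 74212259, GRCh38), was a day 2 gene. On day 2 its high purity wells were at 40.2, 45.4, 36.4 and 38.2 TPM and its low purity wells at 53.7, 50.7, 45.3 and 54.0 TPM, and the log2 fold change of -0.27 was not called (adjusted p 0.183 by limma). These wells overlapped. By day 4 it was at 7.22, 8.38, 8.36 and 10.6 TPM in high purity and at 3.07, 2.87, 2.77 and 2.83 TPM in low purity. All 4 high purity wells lay above the low purity wells (31.7% of all genes did not overlap on day 4). The log2 fold change was 1.30 ± 0.16 (SE; adjusted p 3.84e-09 by limma). On day 8 the order was reversed. The high purity wells were at 3.29, 3.83 and 2.29 TPM and the low purity wells at 15.2, 13.0, 14.3 and 17.7 TPM, a log2 fold change of -1.77 ± 0.17 (adjusted p 6.87e-12 by limma). STRA6 thus had calls in opposite directions 4 days apart.

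DHRS3, the reductase that returns retinaldehyde to retinol (chromosome 1, 12567910 to 12618210), was at 19.3 to 23.4 TPM in high purity and 21.7 to 27.4 TPM in low purity on day 0 and dropped on day 2. On day 2 the high purity wells held 3.79, 2.85, 5.09 and 3.31 TPM and the low purity wells 2.11, 0.906, 1.12 and 1.11 TPM. The groups did not overlap (34% of all genes did not on day 2), with 29 to 70 reads per high purity well against 6 to 14. The log2 fold change was 1.10 ± 0.13 (SE; adjusted p 2.69e-09 by limma). Without high purity well 3 it was 0.97, under the threshold. From day 6 to day 10 both classes stayed between 19.1 and 29.8 TPM.

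DHRS3 then rose in low purity wells, to 78.0, 65.8, 68.1 and 63.5 TPM on day 13 and to 118, 108 and 99.1 TPM on day 16. High purity wells were at 24.5 and 25.2 TPM on day 13 and at 19.9, 31.0 and 19.6 TPM on day 16. The groups were apart on both days, as for 47.5% of all genes on day 13 and 47.6% on day 16. The log2 fold change on day 16 was -1.98 ± 0.15 (SE; adjusted p 4.68e-15 by limma).

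The 3 retinaldehyde dehydrogenases, which catalyse the last step of retinoic acid synthesis, took turns. Summed, they were at 3.41 ± 0.464 TPM in high purity and 3.45 ± 0.394 TPM in low purity on day 0 (SD, n = 4 each). On day 2 ALDH1A2 made up 73.4% of the sum in high purity and 82.7% in low purity wells (means of the wells' shares). From day 6 the sum was mostly ALDH1A1, at 84.5% in high purity and 97.0% in low purity wells on that day. On day 16 ALDH1A1 made up 91.8% of the sum in high purity wells, whereas in low purity wells ALDH1A1 made up 50.6% and ALDH1A2 49.4%.

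**Figure D3:**
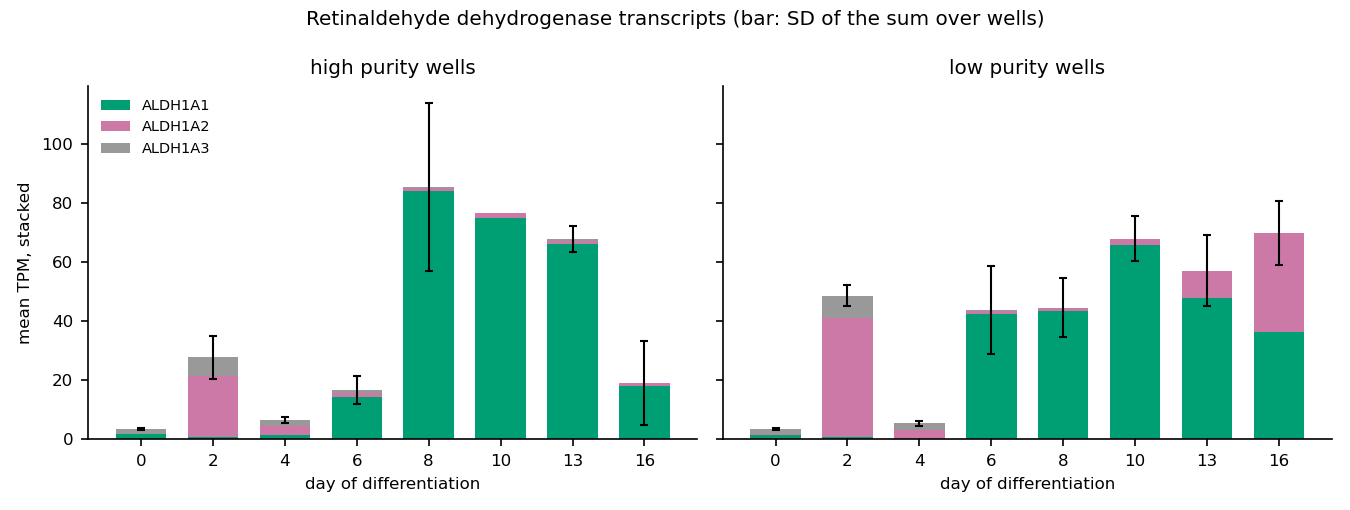
Mean TPM of ALDH1A1, ALDH1A2 and ALDH1A3, stacked, by day in the multi-omic high and low purity wells, with error bars for the SD of the sum over wells (none on day 10 in high purity, which had 1 well). ALDH1A2 holds most of the sum on day 2 in both classes and returns in low purity wells on days 13 and 16.

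ALDH1A2 (chromosome 15, 57953429 to 58065711), the enzyme of early mesoderm and later of the epicardium, had at most 3 reads in any well on day 0. On day 2 it was at 23.3, 15.3, 14.5 and 29.4 TPM in high purity wells and at 38.7, 40.5, 37.2 and 44.2 TPM in low purity wells. The groups did not overlap (34% of all genes did not), and the log2 fold change of -0.92 (adjusted p 7.49e-05 by limma) was under the fold threshold. By day 8 both classes were down to 0.7098 to 1.48 TPM. On day 10 the single high purity well was at 1.61 TPM and the low purity wells were at 1.66 to 2.00 TPM.

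From there the classes parted. On day 13 ALDH1A2 was at 1.11 and 1.19 TPM in high purity and at 14.8, 6.06, 8.45 and 7.11 TPM in low purity wells, a log2 fold change of -2.04 ± 0.23 (SE; adjusted p 4.36e-10 by limma). On day 16 it was at 0.618, 0.776 and 1.40 TPM in high purity and at 41.6, 32.1 and 27.1 TPM in low purity wells, with 13 to 38 reads and 405 to 975 reads per well. The ratio of the mean levels was 36.1, and the log2 fold change was -4.10 ± 0.21 (adjusted p 1.45e-20 by limma). The 2-sided exact permutation p of 0.1 is the lowest possible with 3 against 3. By edgeR on recovered reads the log2 fold change was -4.87 on day 16 and -2.78 on day 13.

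ALDH1A1 (chromosome 9, 72900671 to 72953053), the family member widespread in adult tissues, was at 0 to 2.32 TPM in all wells up to day 4 and rose after it. On day 4 the classes did not overlap, as for 31.7% of all genes. They were at 1.41, 1.23, 1.89 and 0.595 TPM in high purity (5 to 16 reads) and 0, 0.146, 0.165 and 0.268 TPM in low purity (0 to 2 reads). The log2 fold change of 0.94 was under the fold threshold (adjusted p 0.0121 by limma), whereas edgeR on recovered reads called it at 2.99 (adjusted p 0.0224) and limma with a pseudocount of 0.1 at 2.51. On day 6 its high purity wells were at 18.5, 16.0, 7.40 and 15.7 TPM and its low purity wells at 40.4, 53.2, 54.1 and 22.3 TPM, a log2 fold change of -1.50 ± 0.30 (SE; adjusted p 7.81e-05 by limma). On day 8 the order was the other way, at 114, 80.2 and 57.6 TPM in high purity and 28.8, 49.7, 48.3 and 47.3 TPM in low purity wells. That log2 fold change of 1.14 ± 0.33 (adjusted p 0.00394 by limma) fell under the threshold without TMM scaling (0.91), without high purity well 1 (0.94) and without low purity well 1 (0.96). The day 16 wells overlapped, at 5.77, 33.5 and 14.5 TPM in high purity and 19.7, 50.01 and 38.8 TPM in low purity.

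ALDH1A3 (chromosome 15, 100879831 to 100916626), the third family member, was called on no day between the classes in the main limma fit. It rose on day 2, to 5.63 to 6.52 TPM in high purity and 5.92 to 9.07 TPM in low purity wells, and fell by day 4 in both. From day 8 no well held more than 8 reads of it. On day 6 its wells were at 1.60, 0.151, 1.34 and 1.27 TPM in high purity and at 0.322, 0.116, 0.197 and 0.5676 TPM in low purity. They overlapped through high purity well 2, and the log2 fold change of 0.59 was under the fold threshold (adjusted p 0.00472 by limma), whereas edgeR on recovered reads called it at 1.82 (adjusted p 0.00351). These values rest on 2 to 24 reads per high purity well against 1 to 5. On day 16, with 0 to 5 reads per well, edgeR called it at 3.08 (adjusted p 0.0186), and limma with a pseudocount of 0.1 called days 6, 13 and 16 (1.35, 1.36 and 1.51).

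CRABP2 (chromosome 1, 156699606 to 156705784), which delivers retinoic acid to its receptors in the nucleus, was the most abundant of the 10 genes per length from day 2 on in both classes, and CRABP1 was the most abundant on day 0. CRABP2 was at 978, 1019, 815 and 901 TPM in high purity wells on day 4 and at 488, 466, 499 and 496 TPM in low purity wells. On days 4, 6 and 8 the classes did not overlap (31.7%, 30.7% and 42.2% of all genes did not), with high purity on top. The log2 fold changes of 0.93, 0.68 and 0.94 were under the threshold (limma adjusted p 2.53e-09, 1.97e-06 and 1.07e-08). On day 16 the order was the reverse, at 164, 150 and 177 TPM in high purity and 633, 533 and 552 TPM in low purity wells. That log2 fold change was -1.58 ± 0.13 (SE; adjusted p 3.51e-14 by limma). From day 8 to day 16 CRABP2 fell by 1.23 in high purity wells (adjusted p 6.55e-11 by limma) and rose by 1.29 in low purity wells (adjusted p 4.99e-12 by limma).

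CRABP1 (chromosome 15, 78340353 to 78348225), the related cytosolic carrier of retinoic acid, started high and declined. On day 0 it was at 139 to 159 TPM in high purity and 111 to 138 TPM in low purity wells. By day 4 it had fallen to 33.4, 46.9, 42.0 and 28.4 TPM in high purity and to 8.99, 6.22, 7.97 and 6.86 TPM in low purity wells. The log2 fold change on day 4 was 2.17 ± 0.31 (SE; adjusted p 2.02e-07 by limma), and the ratio of mean levels was 5.02. It was 2.24 on day 6 (adjusted p 1.08e-07 by limma) and 1.89 on day 8 (adjusted p 9.59e-06 by limma), with 1 to 6 reads per low purity well on those days. No well exceeded 17 reads on day 13, and on day 16 CRABP1 was at 0.695 to 1.79 TPM in high purity (2 to 6 reads) and 2.10 to 5.62 TPM in low purity wells (5 to 21 reads).

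CYP26A1 (chromosome 10, 93073475 to 93077885), the hydroxylase that clears retinoic acid in the early embryo, gave the strongest early difference on the log2(TPM + 1) scale. Its wells overlapped on day 2, at 28.3, 34.7, 28.0 and 25.8 TPM in high purity and 41.6, 32.0, 35.8 and 30.7 TPM in low purity wells, where the log2 fold change was -0.19 (adjusted p 0.531 by limma). On day 4 it was at 222, 225, 255 and 194 TPM in high purity wells and at 24.6, 31.6, 30.6 and 28.8 TPM in low purity wells. Every high purity well was far above every low purity well (31.7% of all genes did not overlap). The ratio of mean levels was 7.75 and the log2 fold change 2.91 ± 0.20 (SE; adjusted p 3.53e-16 by limma). The 2-sided exact permutation p was 0.0286, the smallest for 4 wells against 4. On the same day ALDH1A1 had a larger ratio of mean levels, 8.85, from at most 16 reads per well. By edgeR on recovered reads the day 4 log2 fold changes were 2.96 for CYP26A1 and 2.99 for ALDH1A1.

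After its peak CYP26A1 fell in both classes and kept the same order. On day 6 the high purity wells were at 10.6, 18.8, 12.3 and 8.76 TPM and the low purity wells at 3.75, 3.37, 2.15 and 2.98 TPM, a log2 fold change of 1.67 ± 0.20 (SE; adjusted p 3.3e-09 by limma). On day 8 a log2 fold change just short of the threshold (printed as 1.00; adjusted p 0.000182 by limma) went with 1.44 to 3.08 TPM in high purity and 0.398 to 1.12 TPM (3 to 10 reads) in low purity wells. It was called on that day with RLE scaling (1.01), with a pseudocount of 0.1 (1.76) and by edgeR on recovered reads (1.81). On day 13 the wells were at 4.90 and 3.94 TPM in high purity and 1.34, 0.801, 2.33 and 0.769 TPM in low purity, a log2 fold change of 1.41 ± 0.25 (adjusted p 8.29e-06 by limma). On day 16 they overlapped, at 2.84, 6.63 and 5.71 TPM against 2.15, 3.18 and 2.00 TPM, with a log2 fold change of 0.96 (adjusted p 0.000628 by limma).

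CYP26B1 (chromosome 2, 72129238 to 72147862), the second hydroxylase of the family, had at most 13 reads in any well up to day 10. It rose from day 8 to day 16 in both classes, by 1.17 in high purity (adjusted p 6.29e-07 by limma) and by 1.70 in low purity wells (adjusted p 2.86e-11 by limma). On day 16 it was at 0.738, 1.94 and 1.64 TPM in high purity and 3.11, 3.73 and 2.34 TPM in low purity wells. These groups did not overlap (47.6% of all genes did not on day 16), and the log2 fold change of -0.65 was under the fold threshold (adjusted p 0.00288 by limma).

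RARB (chromosome 3, 24829321 to 25597932), a nuclear receptor for retinoic acid and one of its direct targets, came on between day 2 and day 4. On day 4 it was at 25.7, 20.1, 21.7 and 27.1 TPM in high purity and at 31.4, 32.8, 32.6 and 30.6 TPM in low purity wells. The low purity wells were all higher (31.7% of all genes did not overlap on day 4), though the log2 fold change of -0.42 was under the fold threshold (adjusted p 0.0102 by limma). By day 6 the order had turned, at 40.1, 37.3, 42.0 and 35.6 TPM in high purity and 16.5, 13.8, 15.3 and 11.02 TPM in low purity wells. The log2 fold change was 1.38 ± 0.13 on day 6 (SE; adjusted p 7.52e-12 by limma) and 1.26 ± 0.14 on day 8 (adjusted p 5.68e-10 by limma). On day 16 the wells overlapped, at 12.4, 16.3 and 12.7 TPM against 15.6, 13.6 and 12.3 TPM. RARB-AS1, an antisense gene of RARB, was listed at 0 to 4.35 TPM from day 4 on, and whether the counting used strand is not given in the sources used here.

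Retinoic acid receptors bind pairs of a 6-base site, and the pair with 5 bases between is the one known from the RARB and CYP26A1 genes. Promoters of RefSeq (GRCh38.p14), 250 bases before to 50 bases after each start, were searched on both strands for pairs of the letters AGGTCA (or the variants GGGTCA as well as AGTTCA as well as GGTTCA) in the same direction. All 10 genes matched, with 21 promoters. An exact pair spaced by 5 bases was in 31 of 35116 promoters (0.0883%), of 29 gene symbols, and RARB and CYP26A1 were among these. The 2 windows are shown because no other of the 10 genes held an exact pair of any spacing searched, with the pair in capitals and RARB read on its gene strand.
RARB, chr3:25428150-25428262, plus strand: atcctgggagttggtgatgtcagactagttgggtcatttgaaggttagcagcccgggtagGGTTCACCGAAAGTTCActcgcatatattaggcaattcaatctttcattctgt
CYP26A1, chr10:93073797-93073826, plus strand: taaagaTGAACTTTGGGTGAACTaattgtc
The RARB pair, at 25428210 to 25428226, starts 53 bases before 1 annotated start of transcription. The CYP26A1 pair, at 93073803 to 93073819, is on the other strand, where it reads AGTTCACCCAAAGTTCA. It is 90 bases before 1 annotated start of that gene. Both pairs lie inside the gene spans, which begin at 24829321 for RARB and 93073475 for CYP26A1. These starts are therefore not the outermost ones of the genes. A match is a description of the letters, and no binding was measured. Exact pairs spaced by 1 base (0.131% of promoters) or by 2 bases (0.0399%) were in no promoter of the 10 genes, which says only that these letters are not in those windows.

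The change from day 0 was also compared between the differentiations directly. For day 2, 1 of 10 changes differed (3.22% of all genes did), for day 4 it was 4 of 10 (7.01%), for day 6 it was 5 of 10 (7.17%) and for day 8 it was 4 of 10 (10.3%). For day 13 it was 2 of 10 (10.5%) and for day 16 it was 3 of 10 (13.4%). CYP26A1 rose more to day 4 in high purity, by 2.84 on the log2 scale, and CRABP2 by 1.28. ALDH1A2 changed less to day 16 in high purity, with a difference of -4.07.

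Other genes of the pathway were counted over lists by role. Of 6 carriers and storage enzymes, all tested, 0 were higher in high purity and 1 was higher in low purity on day 4: TTR, a plasma carrier of retinol-binding protein, at 0.0531 ± 0.106 against 22.3 ± 3.02 TPM (SD, n = 4 each). On day 8 it was 3 and 0, where 1197 of all genes tested were higher in high purity and 1925 in low, among them LRAT, which esterifies retinol for storage, at 22.6 ± 6.13 (SD, n = 3) against 7.30 ± 0.841 TPM (SD, n = 4). On day 16 it was 0 and 2, where 1479 and 1964 of all genes were. Of 9 retinol oxidation genes 8 were tested, and on day 16 there was 1 higher in high purity and 1 in low. DHRS4, a retinal reductase, averaged 9.90 ± 3.33 TPM in high purity and 4.45 ± 1.39 TPM in low purity (SD, n = 3 each; log2 fold change 1.19, adjusted p 6.65e-05 by limma). The main embryonic retinol dehydrogenase RDH10 averaged 12.6 ± 1.89 TPM in high purity against 102 ± 11.6 TPM in low purity (SD, n = 3 each), and its log2 difference was -2.73 (adjusted p 3.35e-18 by limma). CYP26C1, the remaining CYP26 hydroxylase, was higher in high purity on day 6, at 3.49 ± 0.458 against 0.406 ± 0.399 TPM (SD, n = 4 each; log2 fold change 1.64, adjusted p 1.21e-10 by limma).

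Of 11 receptors and cofactors 10 were tested, and 0 were called on day 4, with a median log2 fold change of -0.01. On day 16 RXRG, a partner receptor, was the higher in high purity, 61.0 ± 1.47 TPM against 16.0 ± 5.11 TPM, and the coactivator NCOA3 was lower at 19.0 ± 2.03 against 51.1 ± 3.32 TPM (SD, n = 3 each). Of 21 further genes known to respond to retinoic acid 20 were tested. On day 4, 0 of them were higher in high purity and 9 were higher in low purity, with a median log2 fold change of -0.86, where 930 of the 25664 genes tested were called higher in high purity and 1082 in low. HOXB1, a hindbrain and posterior heart field gene, averaged 1.53 ± 1.01 TPM in the high purity wells of day 4 and 51.8 ± 3.25 TPM in the low purity ones (SD, n = 4 each; log2 fold change -4.42, adjusted p 2.99e-20 by limma). TGM2, a transglutaminase, averaged 0.848 ± 0.161 TPM against 22.1 ± 1.76 TPM on that day, and HOXB5, a posterior HOX gene, averaged 1.78 ± 1.03 TPM against 31.8 ± 6.60 TPM (SD, n = 4 each) on day 6. The tilt of this list was not particular to day 4. The counts higher in high and in low purity were 0 and 9 on day 6 and 0 and 7 on day 8. They were 1 and 9 on day 13 and 0 and 9 on day 16. Those of all genes were 927 and 1332, 1197 and 1925, 1168 and 1599, and 1479 and 1964 on these days. CYP26A1 was lower in low purity wells on day 4, and a link between it and these genes was not tested.

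Cell type markers also differed between the classes, not always on the same days as these genes. Of all 25664 genes, 930 were called higher in high purity and 1082 in low on day 4. These counts were 927 and 1332 on day 6, 1197 and 1925 on day 8, and 1479 and 1964 on day 16. On day 4, where CYP26A1 and CRABP1 were higher in high purity, the 7 cardiomyocyte markers summed to 72.4 to 105 TPM in high purity and 1086 to 1244 TPM in low purity wells, and 5 of 7 were higher in low purity. The 6 pluripotency markers summed to 1852 to 2451 TPM in high purity against 969 to 1094 TPM on that day, with 3 of 6 higher in high purity. The 4 neuroectoderm markers summed to 311 to 413 TPM in high purity against 63.2 to 93.3 TPM. Only 1 of these 4 passed the filter and was tested, and it was higher in high purity. Of 6 endoderm markers 2 were higher and 2 lower in high purity on day 4, and their sums were 134 to 165 TPM against 85.1 to 98.8 TPM. SOX17, an endoderm gene of that list, was at 73.9 to 88.9 TPM in high purity and 26.5 to 29.1 TPM in low purity on that day.

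On days 6 and 8, where RARB and CRABP1 were higher in high purity, 5 of 6 endothelial markers were higher there and 1 was lower. Their sums were 69.5 to 88.9 TPM against 31.9 to 44.5 TPM on day 6 and 85.0 to 121 TPM against 20.7 to 22.2 TPM on day 8. PLVAP, an endothelial gene, was at 29.9 to 42.3 TPM against 0.242 to 1.64 TPM on day 8, and CDH5, another, at 15.8 to 20.6 TPM against 1.196 to 2.06 TPM. Of 6 endoderm markers 3 were higher and 1 lower in high purity on both days, with FOXA2 at 43.6 to 56.3 TPM against 6.26 to 7.21 TPM on day 8. The endoderm sums overlapped, at 144 to 202 TPM in high purity against 138 to 192 TPM on day 6. On day 8 they were at 144 to 215 TPM in high purity against 168 to 272 TPM. The cardiomyocyte markers summed to 9265 to 10784 TPM in high purity and 3223 to 5124 TPM in low purity on day 8.

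On day 16, where ALDH1A2, DHRS3 and CRABP2 were higher in low purity, 7 epicardial markers summed to 20.1 to 24.7 TPM in high purity against 389 to 526 TPM, and 6 of 7 were higher in low purity. WT1, a defining epicardial gene, was at 0.964 to 1.30 and 65.2 to 98.8 TPM. The 7 stromal markers summed to 574 to 690 and 9669 to 13143 TPM on day 16, with 6 of 7 higher in low purity. No epicardial or stromal marker was at 0 in all wells of a class on day 16. On day 4, 3 of 7 epicardial and 5 of 7 stromal markers were already higher in low purity, when the log2 fold change of ALDH1A2 was 0.01. The epicardial sum was already 393 to 479 TPM in low purity wells on day 8, when ALDH1A2 was at 0.7098 to 1.08 TPM there. The part of these markers in the results was not tested.

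**Figure D4:**
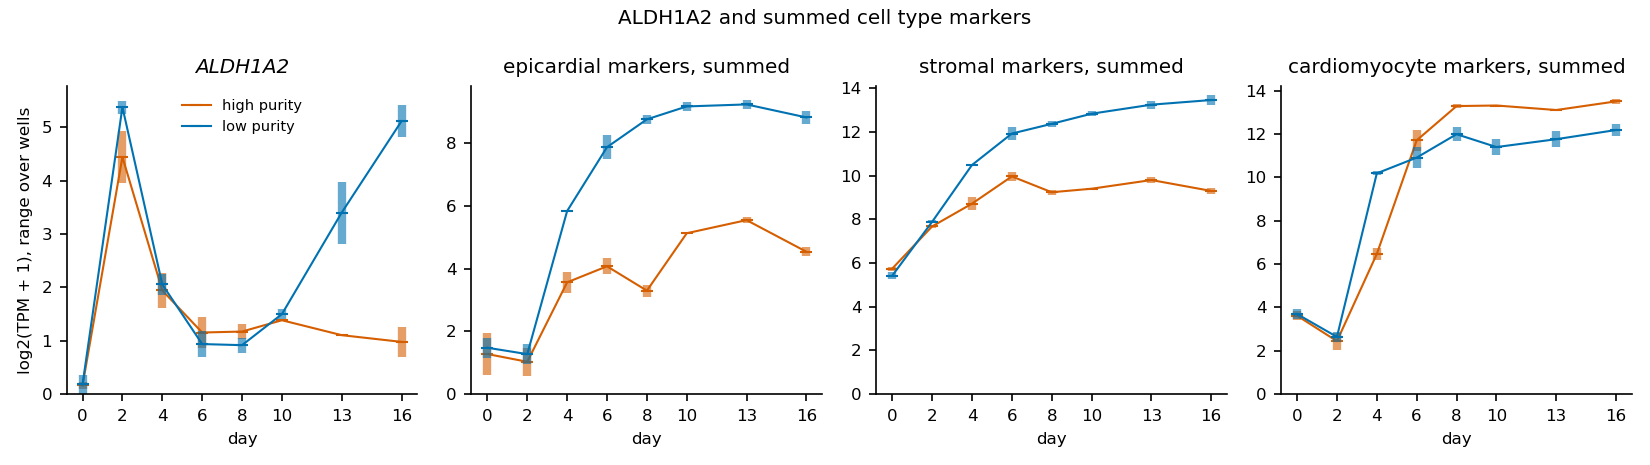
Range over wells (thick bars) of ALDH1A2 and of the summed epicardial, stromal and cardiomyocyte markers, each as log2(TPM + 1), by day in the multi-omic experiment, with lines joining the middle of each range. The epicardial sum is above 393 TPM in low purity wells on day 8, and ALDH1A2 is above 27 TPM there only on days 2 and 16.

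In the RNA-only experiment, 0 of 40 gene and stage pairs were called between high and low purity by edgeR, with the line as the replicate, where 0% of the 24810 genes tested were called at any of the 4 stages. An unadjusted p under 0.05 by edgeR was seen for 6 of the 40. Of all 24810 genes, 362, 1921, 1828 and 2916 had that p at stages 1, 2, 3 and 4. DESeq2 called 0 of 40, with 7 under that p, and limma on TPM called 0 of 36, with 4. None of the genes of the pathway lists was called there either. Levels of this total RNA table are set beside those of the poly(A) table as values only, since the tables were normalized separately.

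**Figure D5:**
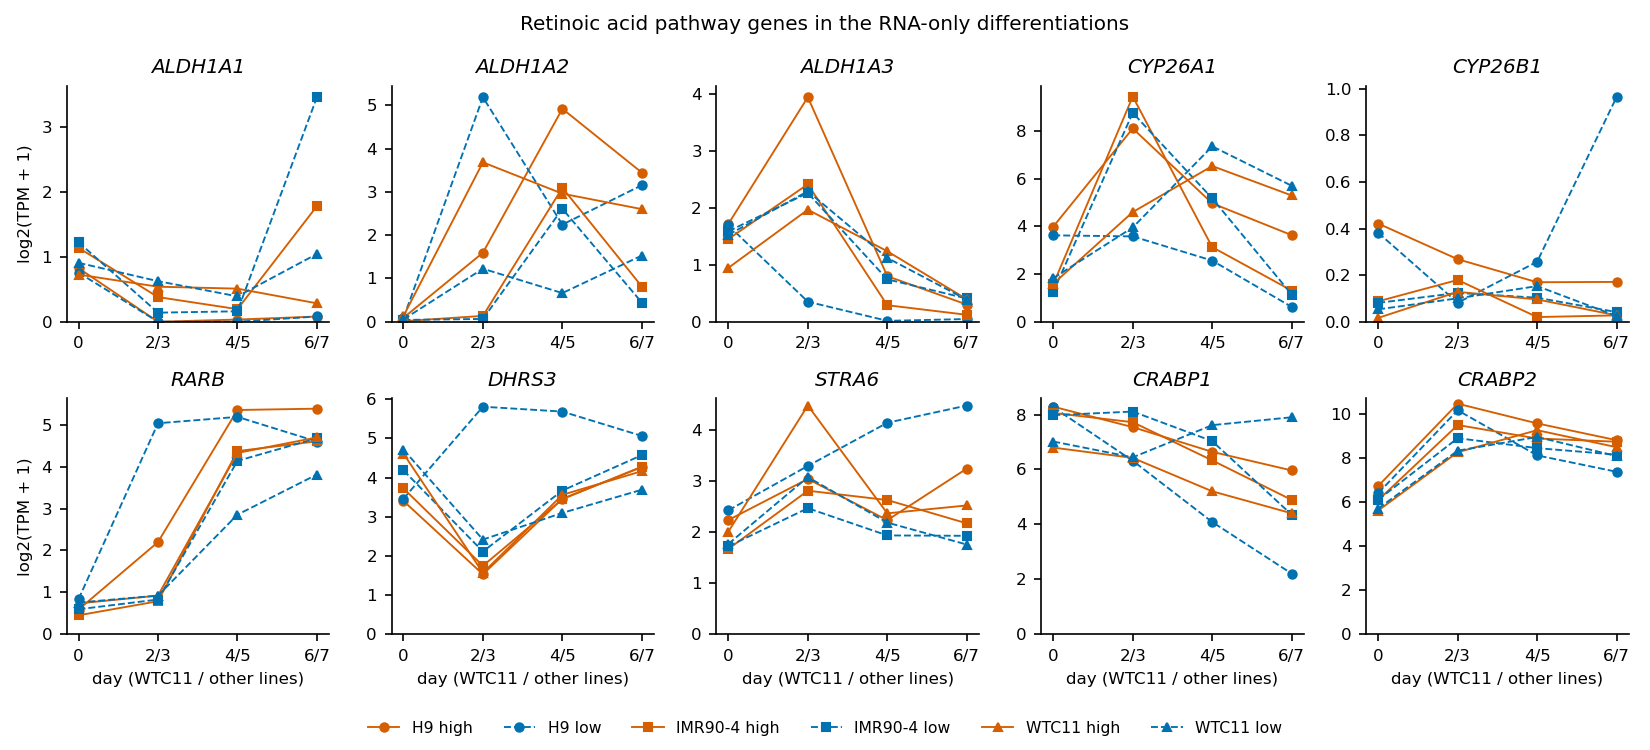
Level of each gene as log2(TPM + 1) at the 4 stages of the RNA-only experiment, 1 library per point, with solid lines for high and dashed lines for low purity and a marker shape per line. The H9 low purity differentiation is apart from the rest at day 3 in ALDH1A2, RARB and DHRS3.

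Changes between stages were called in the RNA-only experiment. From stage 1 to 2, 7 of 10 genes were called by edgeR (25.6% of 23848 genes were), with CRABP2 (3.43, adjusted p 1.86e-07), ALDH1A2, CYP26A1, RARB and STRA6 rising and DHRS3 and ALDH1A1 falling. CRABP2 was higher at stage 2 than at stage 1 in 6 of 6 differentiations. From stage 2 to 3, 2 of 10 were called (6.86% of all genes): RARB rose by 2.99 (adjusted p 0.00598 by edgeR) and ALDH1A3 fell by 2.75 (adjusted p 0.00966 by edgeR). From stage 3 to 4 the count was 0 of 10 with edgeR (3.72% of all genes), and DESeq2 called 1, ALDH1A1. Leaving out H9, IMR90-4 or WTC11 moved the total of 9 calls over the 3 steps to 11, 4 and 7. The rise of RARB to stage 2 was 0.74 without H9 and was no longer called, and that of CYP26A1 was 2.45 without IMR90-4 and was no longer called. The fall of DHRS3 to stage 2 (-1.71) was no longer called without IMR90-4 (-1.38), without WTC11 (-0.91) or with no replicate block (-0.36). DHRS3 did not fall in H9 low purity, where its peak of 55.1 TPM was on day 3. The fall of ALDH1A1 (-2.48) was no longer called without H9 (-1.23), without IMR90-4 (-2.61) or by limma on TPM (-0.55). It was also lost with no filter (-2.44) and with no replicate block (-1.78). ALDH1A1 was low on day 0, at 0.772 TPM in H9 high, 0.689 TPM in H9 low and 0.654 TPM in WTC11 high purity. From stage 2 to 3 the RARB call was lost without IMR90-4 (2.29), without WTC11 (2.64) and with no replicate block (1.89). The ALDH1A3 call was lost without IMR90-4 (-2.40).

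CYP26A1 ranged widely between the lines. At stage 2 it was at 691 TPM in IMR90-4 high, 430 TPM in IMR90-4 low and 273 TPM in H9 high purity. In the other 3 differentiations it was at 23.2 TPM (WTC11 high), 14.5 TPM (WTC11 low) and 10.9 TPM (H9 low). At stage 3 the 2 WTC11 libraries led, at 162 TPM in low and 91.0 TPM in high purity. The other 4 were at 35.0 TPM (IMR90-4 low), 30.1 TPM (H9 high), 7.73 TPM (IMR90-4 high) and 4.91 TPM (H9 low). At that stage high purity was lower in IMR90-4 and WTC11 and higher in H9, and the log2 fold change of -0.41 was not called (adjusted p 0.97 by edgeR). Without H9 it was called, at -1.60 (adjusted p 0.0454 by edgeR), the opposite direction to day 4 of the multi-omic experiment. WTC11 low purity at passage 69 was thus at 162 TPM on day 4 in the RNA-only experiment and at 24.6 to 31.6 TPM in the multi-omic one.

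DHRS3 at stage 2 was at 55.1 TPM in low against 1.88 TPM in high purity H9, 3.32 against 2.35 TPM in IMR90-4 and 4.33 against 1.96 TPM in WTC11. Low purity was higher in 3 of 3 lines and the groups did not overlap, as for 5.78% of all genes at this stage, but the log2 fold change of -2.09 was not called (adjusted p 0.599 by edgeR). In the multi-omic experiment the day 2 wells had the other order. CRABP2 at stage 4 was higher in high purity in 3 of 3 lines: 443 against 163 TPM in H9, 422 against 281 TPM in IMR90-4 and 355 against 268 TPM in WTC11. These groups did not overlap (10.3% of all genes did not at stage 4), and the log2 fold change of 0.80 was not called (adjusted p 0.271 by edgeR). Day 6 of the multi-omic experiment had the same order.

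The H9 low purity differentiation stood apart at day 3. There RARB was at 31.9 TPM and ALDH1A2 at 35.4 TPM, whereas in the other 5 differentiations at stage 2 RARB was at 0.723 to 3.59 TPM and ALDH1A2 at 0.0461 to 11.8 TPM. In that library the 7 cardiomyocyte markers summed to 228 TPM, against 21.8 TPM in the H9 high purity library of the same day, and their part in these levels was not tested. RARB reached 40.0 TPM in H9 high purity at stage 3 and was at 23.3 to 40.9 TPM at stage 4 in H9 and IMR90-4.

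CRABP1 was lower at stage 4 than at stage 1 in 5 of 6 differentiations, all but WTC11 low purity. That differentiation was at 129, 86.0, 195 and 238 TPM on days 0, 2, 4 and 6, whereas WTC11 high purity was at 110, 84.7, 35.9 and 20.1 TPM. In H9 the order was the other way at stage 4, at 3.61 TPM in low and 61.4 TPM in high purity. The multi-omic low purity wells, of the same line and passage label, were at 0.524 to 2.78 TPM on day 6.

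ALDH1A2 was higher in high purity at stage 3 in 3 of 3 lines, at 29.3 against 3.74 TPM in H9, 7.54 against 5.10 TPM in IMR90-4 and 6.78 against 0.583 TPM in WTC11. The classes did not overlap (9.95% of all genes did not at stage 3), and the log2 fold change of 2.26 was not called (adjusted p 0.675 by edgeR). ALDH1A1 at stage 4 was at 9.98 TPM in low and 2.44 TPM in high purity IMR90-4, 1.06 and 0.217 TPM in WTC11, and 2 reads in each H9 library. STRA6 at stage 2 was highest in WTC11 high purity at 21.4 TPM, with 4.54 to 8.84 TPM in the other 5. ALDH1A3 at stage 2 was at 14.4 TPM in H9 high and 0.277 TPM in H9 low purity. CYP26B1 stayed at or under 0.951 TPM in all 24 libraries.

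Over the 16 class and day means of the multi-omic experiment, each gene with a group mean of at least 10 TPM was set against 10671 genes of that level. The patterns most like RARB were those of ID4 (Pearson r 0.975), ISL1 (0.969) and FGF10 (0.967). CYP26A1 was most like PSKH2 (0.963), CRABP1 most like CABLES1 (0.979), and ALDH1A1 most like NFATC2 (0.960). DHRS3 was most like CSRP1 (0.941) and STRA6 most like MOSPD1 (0.939). The likenesses were lower for CRABP2, whose best was ZSWIM6 (0.889), and for ALDH1A2, whose best was DMRTA1 (0.871). Among the 8 of the 10 genes that reached that level, ALDH1A2 and STRA6 were the most alike, at 0.719. These values are descriptions over 16 means that come from 2 differentiations and share libraries.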

How the data were processed

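Gene-level TPM and read counts were deposited for 56 poly(A) libraries of WTC11 and 24 total RNA libraries of 3 lines. Per the submitters' processing notes, reads were aligned to hg38 with STAR 2.5.3a and counted with featureCounts 2.0.3. The annotation, the strand setting and how the authors computed TPM are not given in the sources used here. The deposited RNA-only counts matched the TPM in 24 of 24 columns, and 36 broken lines of 6 genes were left out. Among the deposited multi-omic counts, 0 of 56 columns matched the TPM column of the same name and 50 matched another, so multi-omic tests used TPM. In turn, 6 TPM columns matched no count column, and 4 of these were the high purity wells of day 0. The day 0 comparison, the high purity step from day 0 to 2 and the differences in change from day 0 rest on those wells. Of 55 libraries with another in their group, 54 were nearest to their own group by TPM and 28 by the count table's names.

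Multi-omic values were scaled by TMM and tested as log2(TPM + 1) with limma 3.58.1 (trend, 16 group means, 40 residual degrees of freedom) on genes of at least 1 TPM in 3 libraries. RNA-only counts were tested with edgeR 4.0.16 (quasi-likelihood): high against low with line by stage means on 24810 genes, and stages with 6 differentiation means on 23848 genes. Day 10, with 1 high purity well, was not tested. For 37194 genes the TPM gave whole reads (within 0.05) for 100% of values above 0, and edgeR on these reads, DESeq2 1.42.0, other scalings, filters and pseudocounts and leaving out libraries were the alternatives. On simulated data the multi-omic day 4 test, run on 20327 genes, recovered 97% of genes changed by 1.5 on the log2 scale and 99% of those changed by 3, with 0 false calls. The RNA-only stage 3 test of high against low, run on 22925 genes, recovered 93% and 100%, with 4 false calls. The simulated libraries shared a mean profile and a fixed spread, with no differences between lines. These shares therefore do not say how many real changes the tests would find. All 10 genes are named. Of each pathway list at most 3 called genes with the largest fold were eligible to be named. The members and lists were chosen with earlier results of these data known. No libraries were identical. Total counts limit the precision of low genes.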

Additional observations from a re-analysis of the deposited data

Results flagged for a closer look

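In groups of 4 wells, 1 well lay far from the others in 5 of 110 gene and group sets (4.55%), and chance flags about 1 in 20. ALDH1A1 was at 28.84 TPM in low purity well 1 on day 8 and at 77.47 TPM in low purity well 3 on day 10. CYP26B1 was at 0.1713 TPM in low purity well 1 on day 0, which is 3 reads. CRABP2 was at 581.4 TPM in low purity well 3 on day 2 and at 191.5 TPM in low purity well 4 on day 6.

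The change from day 0 differed between the high and low purity differentiations by limma, on the log2 scale as high minus low, in 19 cases. To day 2 the difference was 1.37 for DHRS3. To day 4 it was 2.84 for CYP26A1, 1.96 for CRABP1, 1.28 for CRABP2 and 1.08 for STRA6. To day 6 it was 2.03 for CRABP1, 1.59 for CYP26A1, 1.37 for RARB, 1.03 for CRABP2 and -1.56 for ALDH1A1. To day 8 it was 1.68 for CRABP1, 1.29 for CRABP2, 1.25 for RARB and -1.99 for STRA6. To day 13 it was 1.34 for CYP26A1 and -2.01 for ALDH1A2. To day 16 it was -4.07 for ALDH1A2, -1.71 for DHRS3 and -1.23 for CRABP2.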

How the results depend on the processing

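No called value changed sign under the alternatives run, and values that were not called were not followed. With no fold threshold, 36 of 70 gene and day pairs were called between high and low purity in place of 18, and 29 changes from day 0 differed in place of 19. The share of all genes called by that rule is not given here. Of all 25664 genes, 6591 (day 0) to 12740 (day 8) had an unadjusted p under 0.05 between the classes by limma. Leaving out 1 well at a time gave 17 to 21 calls between the classes, 51 to 53 between days (52 with all wells) and 18 to 22 for the differences in change from day 0. A pseudocount of 0.1 gave 25 calls between the classes and edgeR on recovered reads gave 24, in place of 18. The shares of all genes called with these settings are not given here either. Whether the higher counts are particular to the named genes was therefore not tested. Leaving out 1 line gave 0 to 1 calls between the classes in the RNA-only experiment and 4 to 11 between its stages (9 with all lines). Without TMM scaling, the day 8 to 16 rises of CYP26A1 (0.94) and STRA6 (0.85) in high purity and of CRABP1 (0.88) in low purity missed the fold threshold. The rise of CRABP1 was 0.74 without low purity day 16 well 1, and the day 4 to 6 rise of STRA6 in low purity was 0.88 without day 6 well 4. For the differences in change from day 0, edgeR no longer called ALDH1A1 to day 6 (-1.62), ALDH1A2 to day 13 (-2.63) or CRABP2 to day 6 (0.98). Without TMM scaling CRABP2 to day 6 (0.99) and to day 8 (0.99) and RARB to day 8 (1.00, just short) were not called. STRA6 to day 4 was 0.97 to 0.99 without high purity day 4 well 4 or low purity day 0 well 1 or 2, and CRABP2 to day 6 was 0.87 without low purity day 6 well 4. The cause was not tested. With well numbers as a replicate block, 19 pairs were called between the classes, the added one being CYP26A1 on day 8. Same-numbered wells did not deviate together: the median correlation over 353 pairs was 0.000821 and 2 pairs were over 0.1, so the wells share only a number. In the RNA-only stages, 6 of the 9 calls held with no replicate block. Depth limits CYP26B1 before day 13, ALDH1A3 from day 8 and CRABP1 in low purity wells from day 6.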
